A study of Homo sapiens with 2 samples.

Results

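CYBB, CYBA, NCF1, NCF4 and RAC2 are genes of the phagocyte NADPH oxidase, the enzyme of the oxidative burst that myeloid cells gain as they mature into granulocytes. The 5 genes were chosen by name, with earlier results of these data known, from 20033 protein-coding genes of the GENCODE 44 annotation. Their LDB1 peaks were those overlapping the gene body extended by 20 kb on each side. The peak nearest to each transcription start site (TSS) was taken as well. CUT&Tag, in which an antibody brings a transposase to a protein on chromatin and the DNA around it is cut and tagged, was done on NB4 cells, a line from a human acute promyelocytic leukemia. There were 2 libraries, 1 with an antibody to LDB1, whose cells the labels give as overexpressing LDB1, and 1 with IgG, whose cells they give as untreated, so antibody and treatment cannot be told apart. The study's methods name no overexpression in their account of this assay, and whether the LDB1 peaks come from overexpressing cells therefore rests on the label alone. The LDB1 library was deposited as 11046 peaks of 229 to 4856 bp (median 451), given by position and length alone, and its depth is unknown. Each group being 1 library without a replicate, no test was made, the IgG library is not analysed here, and neither RNA nor the maturity of the cells was measured in these libraries.

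The oxidase is assembled on demand. CYBB is its catalytic subunit, a membrane flavocytochrome that passes electrons from NADPH to oxygen to make superoxide, and CYBA is the smaller membrane partner that stabilises it. NCF1 and NCF4 wait in the cytosol of resting cells, NCF1 as the organiser that is phosphorylated and docks on CYBA, NCF4 as a subunit that binds phosphoinositides on the phagosome. RAC2 is the blood-cell small GTPase that switches the assembled enzyme on. Inherited loss of CYBB, CYBA or NCF1 causes chronic granulomatous disease. NB4 cells acquire a burst when all-trans retinoic acid drives them towards granulocytes. LDB1 does not bind DNA itself. It joins LIM-domain proteins such as LMO2 to factors including GATA proteins and TAL1, and it can hold distant elements and promoters together.

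To show the sequence under these peaks, 200 bases of each are given from the plus strand of hg38, 5′ to 3′, for the 3 peaks in the RAC2 window and for the nearest peaks of the 3 genes whose windows held none. Capitals mark letters that match any of 9 motifs searched on both strands. The motifs were GATA (the letters GATA preceded by A or T and followed by A or G), a composite (CTG, then 7 or 8 bases, then the GATA motif, so that each composite also counts as GATA), an E-box (CAG, then A or C, then TG), RUNX (TG, then C or T, then GGT), ETS (A or C, then GGAAGT), CEBP (TTGC, any 2 bases, AA), IRF (GAAA, any 2 bases, GAAA), AP-1 (TGA, then C or G, then TCA) and KLF (CC, then A or C, then C, then A or G, then CCC). A match is a description of the letters and not a measured binding site. CYBB is shown by the first 200 bases of its peak, where its composite lies, and the others by the central 200.

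CYBB nearest peak, chrX:37716767-37716966: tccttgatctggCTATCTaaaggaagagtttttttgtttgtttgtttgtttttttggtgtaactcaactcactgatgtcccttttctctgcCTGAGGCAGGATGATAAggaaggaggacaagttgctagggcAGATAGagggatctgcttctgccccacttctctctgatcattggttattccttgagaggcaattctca

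CYBA nearest peak, chr16:88688217-88688416: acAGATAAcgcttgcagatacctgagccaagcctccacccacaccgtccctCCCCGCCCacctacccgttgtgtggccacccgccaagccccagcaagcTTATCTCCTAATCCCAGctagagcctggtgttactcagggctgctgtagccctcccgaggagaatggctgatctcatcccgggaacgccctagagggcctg

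NCF4 nearest peak, chr22:36982225-36982424: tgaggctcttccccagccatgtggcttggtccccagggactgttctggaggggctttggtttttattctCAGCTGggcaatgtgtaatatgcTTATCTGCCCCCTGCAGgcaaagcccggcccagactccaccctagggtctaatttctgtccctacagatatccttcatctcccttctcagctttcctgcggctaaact

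RAC2 peak nearest the TSS, chr22:37243790-37243989: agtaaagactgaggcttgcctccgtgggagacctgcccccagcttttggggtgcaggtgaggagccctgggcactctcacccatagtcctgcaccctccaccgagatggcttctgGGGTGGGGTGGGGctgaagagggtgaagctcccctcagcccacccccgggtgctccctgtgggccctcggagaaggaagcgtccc

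RAC2 second peak of intron 1, chr22:37242623-37242822: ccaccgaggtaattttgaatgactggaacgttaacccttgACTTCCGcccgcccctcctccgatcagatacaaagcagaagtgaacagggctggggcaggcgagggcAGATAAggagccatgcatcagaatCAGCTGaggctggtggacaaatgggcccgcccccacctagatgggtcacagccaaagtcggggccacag

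RAC2 peak of intron 5, chr22:37230291-37230490: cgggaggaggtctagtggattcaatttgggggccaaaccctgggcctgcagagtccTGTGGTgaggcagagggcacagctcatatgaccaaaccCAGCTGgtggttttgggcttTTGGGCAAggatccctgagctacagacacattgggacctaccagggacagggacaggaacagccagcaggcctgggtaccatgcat

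In the CYBA and NCF4 stretches the longest run of capitals is the composite, read on the minus strand. In the CYBB stretch it is the composite on the plus strand. None of the 3 RAC2 stretches holds a composite. In the RAC2 peak nearest the TSS the run of capitals is 2 overlapping KLF matches on the minus strand.

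To ask which oxidase genes carried LDB1, the windows of the 5 genes were searched. Results showed that RAC2 had 3 peaks, all within its body, NCF1 had 1 peak outside its body, and CYBB, CYBA and NCF4 had none. Thus 2 of 5 genes (40%, Wilson 95% interval 11.8 to 76.9%) had a peak in the window, beside 31.7% of all protein-coding genes, and 1 of 5 (20%, interval 3.62 to 62.4%) had a peak in the body, beside 16.5%. These intervals cover counting error only, and the 5 genes were chosen with earlier results of these data known. The share of the 5 genes is near that of all genes. A body with 3 or more peaks, as in RAC2, was found for 3.36% of protein-coding genes. The cut of 3 was the count of RAC2 itself. RAC2 had 2 peaks in its window when peaks under 1 kb apart were merged, and 1 among peaks of at least 451 bp. The share over all genes was not recalculated for those settings.

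**Figure D1:**
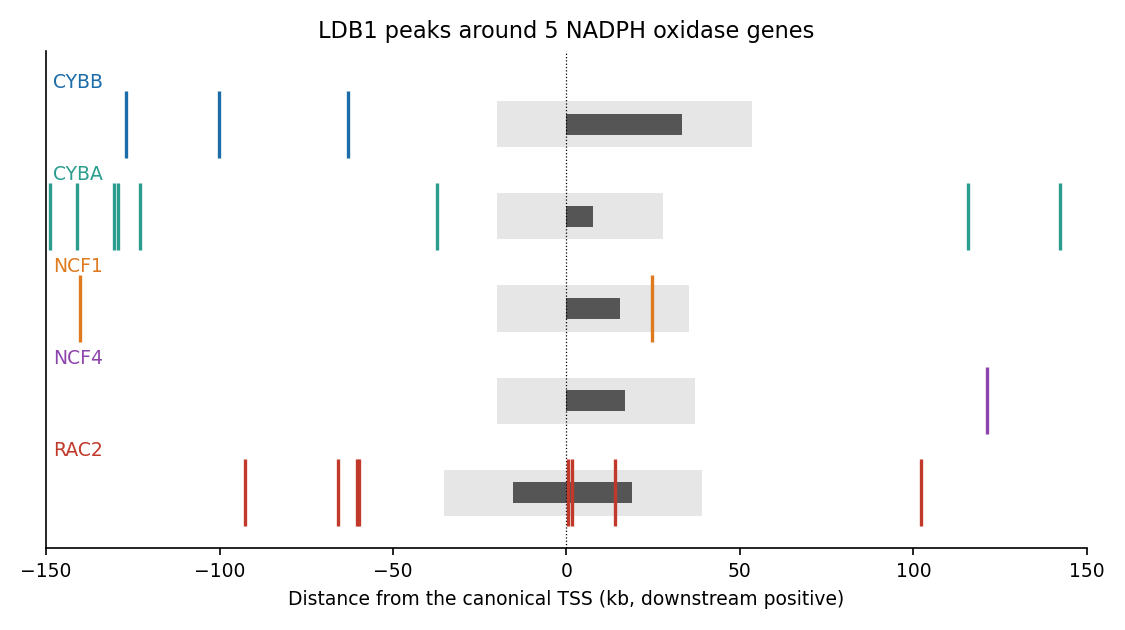
LDB1 peaks (coloured ticks, at the peak midpoint) around 5 oxidase genes, plotted by distance from the canonical TSS in kb, with positive values downstream. Dark bars are the annotated gene bodies and pale bars the same extended by 20 kb. The RAC2 bar holds 3 peaks, the NCF1 bar 1 in its downstream extension, and those of CYBB, CYBA and NCF4 none.

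The genes were also ordered by the distance from the TSS to the midpoint of the nearest peak. RAC2 was nearest at 380 bp, followed by NCF1 at 24674 bp, CYBA at 37263 bp, CYBB at 63091 bp and NCF4 at 121318 bp. Over protein-coding genes on chromosomes with peaks, the median was 89735 bp with quartiles of 26896 and 259342 bp. RAC2 and NCF1 therefore lay below the lower quartile, CYBA and CYBB below the median and NCF4 above it. In this single library these distances carry no replicate error.

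**Figure D2:**
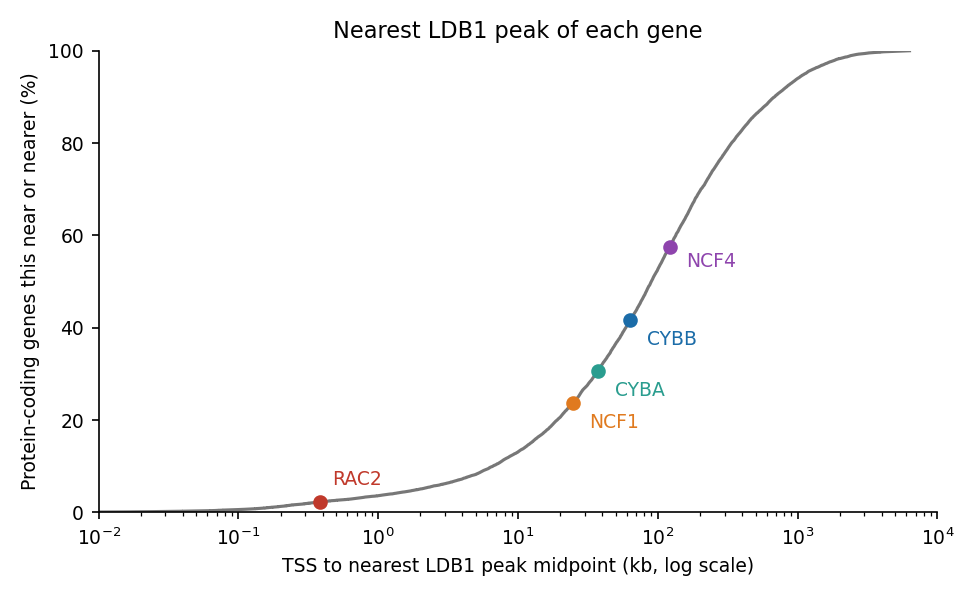
Distance from the TSS to the nearest LDB1 peak midpoint (kb, log axis) against the share of protein-coding genes with a peak as near or nearer (%, grey curve). Points are the 5 oxidase genes, of which RAC2 lies at 2.27% and the others between 23.8% and 57.6%.

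CYBB (ENSG00000165168.9), the catalytic subunit, lies at chrX:37780018-37813461 on the plus strand and has 13 exons. Its body of 33444 bp and its window held 0 peaks, and 32.7% of coding genes of similar length, within a factor of 1.5, had a peak in the window. On chromosome X as a whole, 20.5% of 859 coding genes did. The nearest peak, chrX:37716767-37717170, was 404 bp long and lay 63091 bp upstream, in intron 2 of XK, which encodes the carrier of the Kx blood group antigen. The same position lies in intron 3 of ENSG00000250349, a readthrough gene whose annotation also spans CYBB. Of coding genes, 41.6% had a peak as near or nearer.

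On its other side CYBB had no peak until TSPAN7, a tetraspanin gene, where a peak of 523 bp in intron 1 lay 854833 bp from the CYBB TSS. The stretch without peaks around CYBB was thus 917460 bp. It holds 8 protein-coding genes in full, CYBB, DYNLT3, H2AP, H2AL3, SYTL5, SRPX, RPGR and OTC. A span at least this long surrounded the TSS of 34.1% of coding genes, and the median was 510754 bp. Within 500 kb of the CYBB TSS there were 3 peaks, 2 in LANCL3 and 1 in XK, beside a median of 5 over coding genes. Of the 31-base sequences of the CYBB body, 99.1% occurred once in hg38, so nearly all of it can be told from the rest of the genome.

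CYBA (ENSG00000051523.12), the membrane partner of CYBB, lies at chr16:88643275-88651083 on the minus strand, with 6 exons in 7809 bp. Neither its body nor its window held a peak. The nearest peak, chr16:88687905-88688728, was 824 bp long, and 16.1% of all peaks were as long or longer. It lay 37263 bp upstream in intergenic sequence, 1809 bp from the TSS of SNAI3, a zinc finger gene of the snail family, and 30.7% of coding genes had a peak as near or nearer. The span without peaks around CYBA was 152309 bp and held ZC3H18, IL17C, CYBA, MVD and SNAI3 in full. MVD, which encodes an enzyme of isoprenoid synthesis and is read from the same strand, ends 852 bp upstream of CYBA.

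The wider neighbourhood of CYBA was rich in peaks. Within 500 kb of its TSS there were 38, and 0.714% of coding genes had as many or more. Of these, 11 lay in ZFPM1, which encodes a cofactor of GATA proteins, and 5 in CBFA2T3, which encodes a corepressor found in LDB1 complexes. PIEZO1 and ACSF3 held 3 each and 16 lay in no coding gene body. The longest was a peak of 4088 bp in ZFPM1. The ZFPM1 peak nearest to CYBA was 115671 bp from the CYBA TSS. The span without peaks around CYBA was not a long one, since 79.1% of coding genes had a span at least as long. In the CYBA body 89.7% of 31-base sequences occurred once.

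NCF1 (ENSG00000158517.16), the cytosolic organiser, lies at chr7:74774011-74789315 on the plus strand, with 11 exons in 15305 bp. Its body held 0 peaks. Its window held 1, chr7:74798410-74798961, of 552 bp, which begins 9095 bp beyond the end of the gene, with its midpoint 24674 bp downstream of the TSS. The peak lies in intron 15 of GTF2IRD2, a gene of the GTF2I family read from the opposite strand, and in intron 22 of the overlapping ENSG00000289346. Its distance to the nearest annotated TSS, one of GTF2IRD2, was 8364 bp. Of coding genes, 23.8% had a peak as near or nearer, and 31.6% of genes of similar length had one in the window. The span without peaks around NCF1 was 164502 bp, held GTF2I and NCF1 in full and was ended on its downstream side by this peak. A span at least this long surrounded the TSS of 77.5% of coding genes.

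NCF1 is the gene where the sequence itself limits what the peaks can show. Its whole body has a pair of near-identical copies on chromosome 7, the pseudogenes NCF1B at chr7:73220625-73235945 and NCF1C at chr7:75156639-75171964, each 99.3% identical to it. Only 7.69% of the 31-base sequences of the NCF1 body occurred once in hg38, and 38.0% of its 150-base stretches held such a sequence. In NCF1B and NCF1C the shares of 31-base sequences were 3.16% and 3.50%. How reads that align equally well to several places were treated is not stated, so the absence of a peak in NCF1 cannot be told apart from reads that were placed elsewhere, and a peak at 1 copy cannot be assigned to that copy.

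A peak did lie in a copy. It was chr7:75156862-75157232, 371 bp long, in NCF1C. The matching stretches of NCF1 (chr7:74788722-74789092, 98.9% identical) and NCF1B (chr7:73235352-73235722, 99.5%) carried no peak. In NCF1 that stretch reaches close to the end of the gene, so it is far from the promoter. Of the 31-base sequences of this peak 18.2% occurred once in hg38, and its central one occurred 3 times. NCF1B had no peak in its window.

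The window peak of NCF1 shared this limit. Its central 31 bases occurred 1122 times in hg38, 13.4% of its 31-base sequences occurred once, and copies of the whole peak at GTF2IRD2P1 (98.9% identical) and GTF2IRD2B (99.1%) had no peak. By comparison, 10.7% of all peaks had a central sequence that occurred more than once. With such peaks left out, RAC2 was the only 1 of the 5 genes with a peak in its window. The share of all coding genes with a peak was not recalculated without them.

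**Figure D3:**
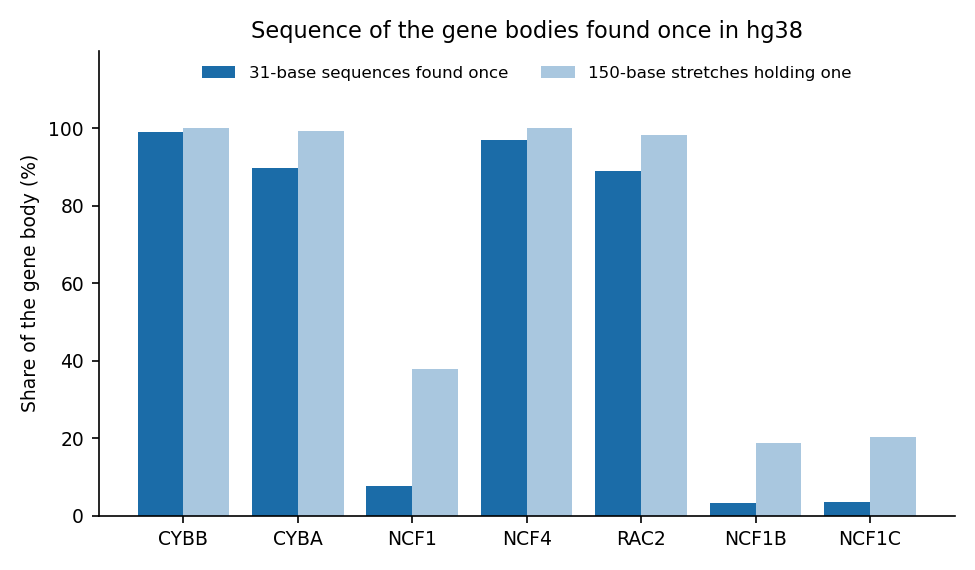
Share of each gene body (%) that can be told from the rest of hg38, as 31-base sequences found once (dark bars) and 150-base stretches holding at least 1 of them (pale bars). NCF1 and its copies NCF1B and NCF1C lie at 7.69%, 3.16% and 3.50% by the first measure, and the other 4 oxidase genes between 89.1% and 99.1%.

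NCF4 (ENSG00000100365.16), the subunit that binds phosphoinositides, lies at chr22:36860988-36878017 on the plus strand, with 10 exons in 17030 bp. It had 0 peaks in its body and window, beside 32.2% of genes of similar length with a peak in the window. The nearest peak, chr22:36982051-36982597, was 547 bp long and lay 121318 bp downstream in intergenic sequence, 25527 bp from the TSS of TEX33. CSF2RB, which encodes the beta chain shared by the GM-CSF, IL-3 and IL-5 receptors, lies between NCF4 and that peak. Of coding genes, 57.6% had a peak as near or nearer. The span without peaks was 500425 bp, close to the median of all coding genes, and took in FOXRED2, EIF3D, CACNG2, IFT27, PVALB, NCF4 and CSF2RB. Of its 31-base sequences, 97.0% occurred once.

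NCF4 and RAC2 lie on the same chromosome with 347252 bp between them, and 2 peaks fell in that interval. Within 500 kb of the NCF4 TSS there were 21 peaks, a number reached by 7.20% of coding genes. The 3 peaks of RAC2 were among them, with 6 in MYH9, 3 in TXN2 and 3 in CYTH4. NCF4 had the greatest distance to a peak of the 5 genes in a region with many peaks.

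RAC2 (ENSG00000128340.16), the GTPase, lies at chr22:37225270-37259594 on the minus strand. Its canonical transcript starts at 37244269 and has 7 exons. The 3 peaks lay in its introns and none touched an annotated exon. The peak nearest the TSS, chr22:37243683-37244095, was 413 bp long, lay in intron 1 and had its midpoint 380 bp downstream. Its near edge was 174 bp from the TSS and 18 bases from exon 1. A peak as near or nearer was found for 2.27% of coding genes. The second, chr22:37242393-37243052, was 660 bp long, lay in the same intron 1547 bp downstream, and 25.6% of all peaks were as long or longer. The first 2 were 630 bases apart, and merging peaks under 1 kb apart made them 1.

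The third RAC2 peak, chr22:37230275-37230506, lay in intron 5, 13879 bp downstream of the canonical TSS and 11886 bases from the second. It was 1113 bp from the start of another annotated RAC2 transcript. At 232 bp it was among the shortest in the list, where 1.43% of peaks were as short or shorter. Among 4418 coding genes of similar length to RAC2, 33.0% had a peak in the window, 17.5% had one in the body, and 134 (3.03%) had 3 or more. Of the 31-base sequences of the 3 peaks, 100%, 99.4% and 100% occurred once in hg38, from the TSS inwards. Upstream of RAC2, the next peak lay in intron 8 of CYTH4, a blood-cell exchange factor for ARF GTPases, 59763 bp from the RAC2 TSS.

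**Figure D4:**
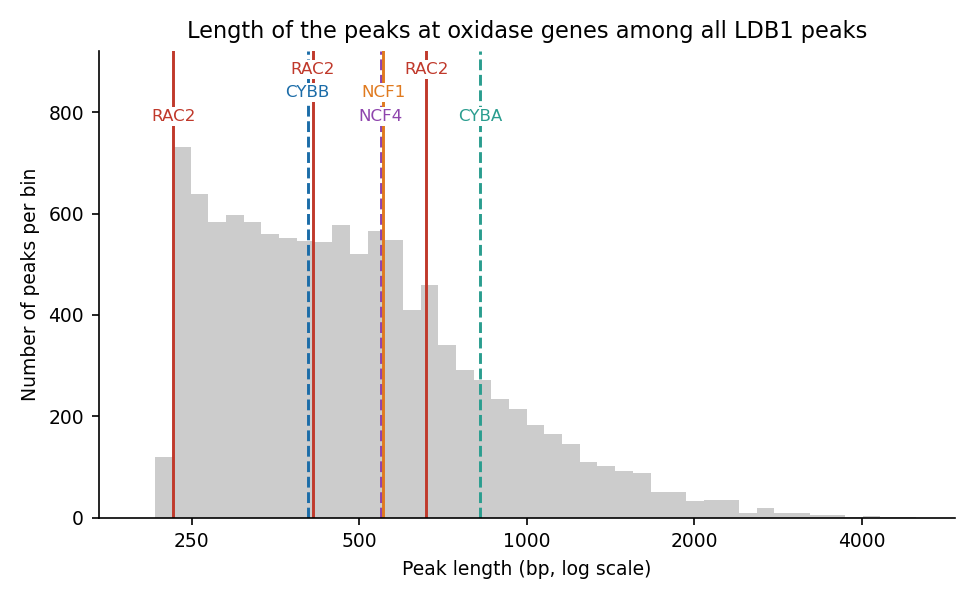
Lengths of all 11046 LDB1 peaks (grey histogram, bp, log axis, peaks per bin). Solid lines mark the 4 peaks in the windows of RAC2 and NCF1, and dashed lines the nearest peaks of CYBB, CYBA and NCF4. The RAC2 peaks of 232, 413 and 660 bp span from the short end to the upper part of the distribution, and the CYBA peak of 824 bp is the longest of the 7.

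The list had peak length quartiles of 314 and 666 bp. Of the 7 peaks, the one in intron 5 of RAC2 lay below the lower quartile, that of CYBA at 824 bp lay above the upper, and the other 5 lay between. Length is the sole measure of size that the list carries, and it is not a measure of signal.

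To describe the letters under the 4 window peaks, the motifs were counted in the central 200 bp of each and set beside their share in all peaks. The GATA motif was found in 1 of 4, the second peak of RAC2 intron 1, beside 47.1% of all peaks. The composite was found centrally in 0 of 4, beside 11.2%. An E-box was found in 2, both of RAC2, beside 33.8%. RUNX was found in 1, the RAC2 peak of intron 5, beside 20.5%, and CEBP in the same peak, beside 7.47%. ETS was found in 1, the second peak of RAC2 intron 1, beside 6.18%. KLF was found in 2, the RAC2 peak nearest the TSS and the NCF1 peak, beside 14.7%. IRF and AP-1 were found in 0, beside 1.58% and 9.50%. With 4 peaks, these counts describe each peak and were not tested against the shares over all peaks.

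The 3 RAC2 peaks held different sets of motif matches, although the E-box and CEBP motifs each occurred in more than 1 of them. The one nearest the TSS, with a GC content of 64.4% beside a median of 51.4% over all peaks, had KLF matches in its centre and a CEBP match 199.5 bp to the low side of its midpoint, and no GATA match. Among peaks of similar length to this one, 69.5% had a GATA match, 26.6% KLF and 14.5% CEBP. The second had 2 GATA matches, 1 of them 10.5 bp from the midpoint, an E-box 34.5 bp from it, and 3 ETS matches over its whole length. At least 1 ETS match was present in 18.7% of peaks of similar length, a GATA match in 83.9% and an E-box in 70.6%. The peak of intron 5 had an E-box 2.5 bp from its midpoint, a CEBP match at 18.5 bp and a RUNX match at 40.5 bp on the other side, again with no GATA match. Among peaks of similar length to the intron 5 peak, 46.7% had a GATA match, 37.2% an E-box, 26.1% RUNX and 9.45% CEBP. GATA factors, ETS factors, CEBP proteins and RUNX proteins are all regulators of myeloid genes, and which of them were present at these sites was not measured.

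The nearest peaks of the other genes carried the composite. In the NCF4 peak it lay 1 bp from the midpoint and in the CYBA peak 8 bp from it. In the CYBB peak it lay 102 bp from the midpoint, with 3 GATA matches in the peak, and in the NCF1 peak 186 bp. All 4 had the spacer of 8 bases. Over whole peaks, the composite was thus found in the nearest peaks of 4 of the 5 genes, beside 22.4% of all peaks and 26.9% of the nearest peaks of all protein-coding genes. Among peaks of similar length, the composite was present in 32.9% for the CYBA peak, 23.6% for NCF1, 23.4% for NCF4 and 18.2% for CYBB. The NCF1 peak is counted among these 4 although its central sequence is repeated in hg38 and it cannot be assigned to 1 copy. The count of 4 was made after the matches were seen and is a description. It changes with the window, since 2 of the 5 nearest peaks held the composite in the central 200 bp.

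**Figure D5:**
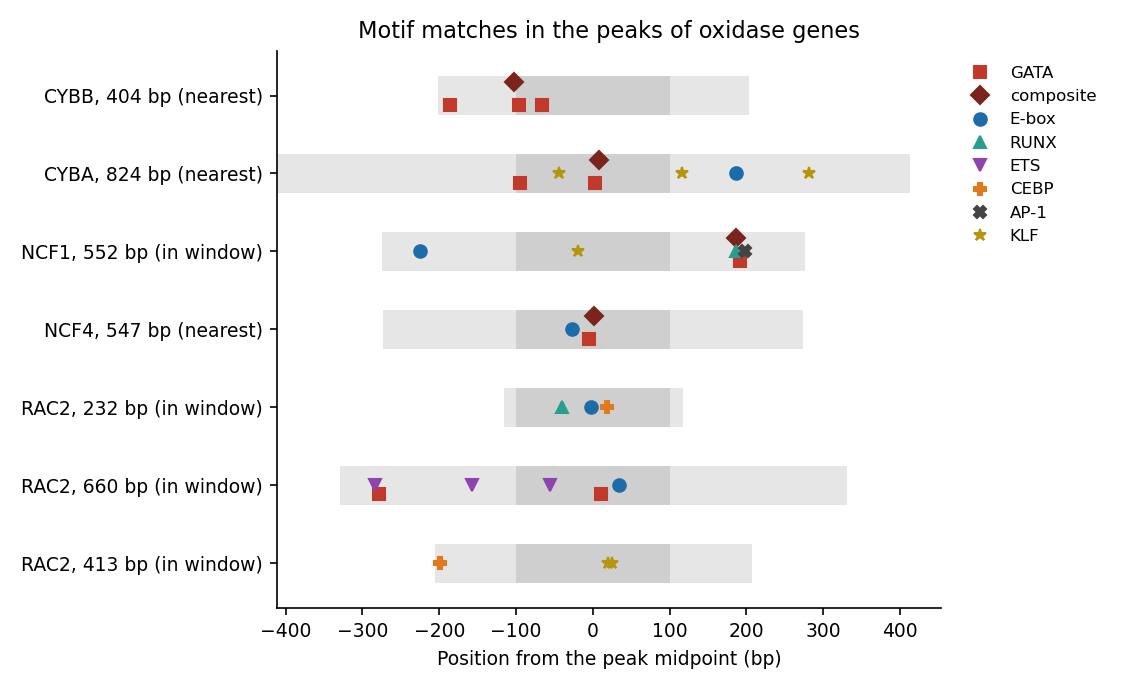
Motif matches on either strand in the 7 peaks, by position from the peak midpoint in bp, with the whole peak in pale grey and its central 200 bp in darker grey. Composites (diamonds) are present in the peaks of CYBB, CYBA, NCF1 and NCF4, near the midpoint in CYBA and NCF4, and absent from the 3 RAC2 peaks.

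To set the oxidase beside the genes that assemble and trigger it, 4 lists were searched in the same windows. Of 33 genes, 15 (45.5%, interval 29.8 to 62.0%) had a peak in the window, beside the 31.7% of all coding genes, and 11 had one in the body, beside 16.5%. The interval of the window share includes the share of all genes. No interval was calculated for the body share, so the same cannot be said of it. The lists were not matched to all genes on gene length, and no test was made.

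Among 10 partners of assembly and regulation, 8 had a peak in the window (80%, interval 49.0 to 94.3%), beside 31.7% of all coding genes. In the body 7 had one, beside 16.5%. The list was chosen with earlier results of these data known and was not matched to all genes on length. Its interval covers counting error only, so setting it beside the share of all genes is not a test. PRKCB, a kinase that phosphorylates NCF1, had 6 peaks, the nearest 306 bp upstream of its TSS and 435 bp long. HVCN1, the proton channel that offsets the charge moved by the oxidase, had 2, the nearest 644 bp upstream. CYBC1, a chaperone that the CYBB and CYBA pair needs, had 3 within the window and 0 in its body, the nearest 2737 bp upstream. ARHGDIA, which holds Rac proteins in the cytosol, had 1 peak of 847 bp, 2813 bp downstream of its TSS. RAP1A, a small GTPase that purifies with the cytochrome, had 2, and RAC1, PRKCD and PAK2 had 1 each. ARHGDIB and PAK1 had none.

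Among 8 receptors that trigger the burst, 4 had a peak (50%, interval 21.5 to 78.5%), an interval that includes the 31.7%. FPR1, the formyl peptide receptor, had 10 peaks, 5 in its body, and FPR2 had 3. The annotated body of FPR1 takes in FPR2, so their windows share peaks. The count of 4 and its interval treat them as separate genes although they are not independent. C5AR1, the C5a receptor, had 2, the nearest 2719 bp long, and FCGR1A, the high-affinity IgG receptor, had 1. FCGR2A, ITGAM, ITGB2 and CLEC7A had none. The peak nearest to ITGB2, the integrin beta chain of phagocytes, was 66106 bp from its TSS and 3504 bp long.

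Of 5 exchange factors that load Rac with GTP, 1 had a peak (20%, interval 3.62 to 62.4%, which includes the 31.7%). It was DOCK2, with 5 peaks, 4 of them in its body, and VAV1, VAV3, PREX1 and TIAM1 had none. Of 10 relatives of the oxidase used in other tissues, 2 had a peak (20%, interval 5.67 to 51.0%, which includes it too), NOX5 with 4 and DUOX1 with 1. The intervals of the 4 lists overlap, and the lists were not tested against each other.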

How the data were processed

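CUT&Tag had been done on NB4 cells, with 1 library for LDB1 and 1 for IgG. Per the methods and the submitters' processing notes, the authors aligned reads with Bowtie2 2.4.4 to hg38 and called peaks with MACS3 3.0 on paired-end fragments at a q-value limit of 0.01. Whether IgG was the control, and how duplicates and reads with several alignments were treated, is not stated. The deposited LDB1 list gave other values than counts, namely where each peak starts and ends and its length in bp. It had no score, summit or read number, so depth is unknown. The list was used as deposited, with 0 columns of other samples, and the midpoint stood for the summit.

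Genes, exons and canonical TSSs came from GENCODE 44. Coding genes within a factor of 1.5 in body length, and peaks within a factor of 1.25 in length, were called similar. Motifs were searched on both strands in the central 200 bp and in whole peaks. Copies of 31-base sequences were counted on both strands of the assembled chromosomes. Copies of NCF1 and its peaks were sought on chromosome 7 with BLAST+ 2.17.0, at 90% identity or more over at least 50% of the query. SciPy 1.17.1, pandas 2.3.3, pysam 0.24.0, numpy 2.4.6 and matplotlib 3.10.9 were run in Python 3.11.15. Wilson 95% intervals cover counting error in this library. The counting was tested on simulated data. The sequence of the NCF1 peak is not reported here.

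The genes and lists were chosen with earlier results of these data known. The genes named are the 5 oxidase genes with each window peak and nearest peak, genes that hold or adjoin those peaks, and every list gene with a window peak. The listed genes without a peak were named after their values were seen, as were genes in the spans without peaks and within 500 kb. Alternatives were windows of 3, 10 and 50 kb, peaks of at least 451 bp, peaks with a unique centre, midpoints in place of overlap, merged peaks, distances to the peak edge or to any TSS, motif windows of 100 and 400 bp and whole peaks, and peaks over 3 kb from any TSS.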

Additional observations from a re-analysis of the deposited data

How the results depend on the processing

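No paired analysis was possible because LDB1 and IgG had 1 library each. Of 72 alternative values, 51 stayed within 1.5 times of the reported one or, for shares, within its interval. The number of oxidase genes with a peak fell from 2 to 1 with a window of 3 kb, by loss of NCF1. Keeping only peaks whose central sequence was found once gave the same fall, again by loss of NCF1. With a window of 50 kb the number rose to 3, where CYBA gained a peak. The share over all coding genes was not recalculated for these settings. The 4 window peaks became 7 with 50 kb and 2 among peaks of at least 451 bp. Among those longer peaks the distance became 854833 bp at CYBB and 1547 bp at RAC2. The RAC2 distance was 174 bp to the peak edge, and that of NCF1 was 15242 bp from the nearest TSS of any transcript. GATA was found in 2 of the 4 window peaks, and the composite in 1, both in 400 bp and over whole peaks. Over whole peaks the shares of all peaks were 71.4% for GATA and 22.4% for the composite. For 400 bp no share over all peaks was calculated. Wider windows take in more sequence. A window of 400 bp runs past the ends of shorter peaks. Among the counts of the other motifs 5 of 21 moved, and among 7115 peaks over 3 kb from any TSS 4 of 9 shares over all peaks moved. The list has no score, summit or read number, and the library has no replicate.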
